A study of Mus musculus with 11 samples.

Results

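Hand1, Hand2, Twist1 and Twist2 are basic helix-loop-helix (bHLH) transcription factors, and their transcript levels were read in hindlimb (HL) buds of mouse embryos at E10, an early stage of bud outgrowth. The members were the rows of the deposited expression table that carry these symbols, 4 of 13720 genes. The table held 11 libraries, each made from both HLs of 1 embryo, with 6 embryos labelled knockout for Meis1 and Meis2 (M1KO;M2KO, written KO for single libraries) and 5 wild type (WT). A set of 5 libraries was prepared with the NuGen Ovation kit (KO S_258, KO S_280 and KO S_284, and WT S_252 and WT S_254), and a set of 6 with NEBNext Ultra II Directional (KO 2, KO 3 and KO 4, and WT 1, WT 3 and WT 4). Values are CPM, reads per gene relative to a library size that the authors adjusted by TMM, after their batch correction, so libraries do not sum to one total.

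The KO embryos combined a conditional Meis2 allele with either a constitutive or a conditional Meis1 deletion, and recombination was driven by HoxB6CreER, a tamoxifen-dependent Cre that acts in the lateral plate including the HL field. The labels name this driver for the NEBNext KO embryos. Cells outside that domain, such as blood and the surface ectoderm, may keep the conditional alleles intact. The label of WT S_254 gives it as heterozygous for Meis1, and it stayed in the WT group that the label assigns. Ovation KO embryos were males of litters 1, 3 and 4 and Ovation WT embryos females of litter 1, so sex and genotype cannot be told apart in that set. Embryos had between 30 and 33 somites. In bulk HL samples, fewer cells that express a gene and less RNA per cell cannot be told apart.

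As background, bHLH factors bind DNA as dimers. Hand and Twist proteins pair with the broadly expressed E proteins and also with each other, and Id proteins, which lack the DNA-binding basic region, take E proteins out of the pool. In the limb bud Hand2 marks the posterior mesenchyme, where it is needed to switch on Shh, and it acts against Gli3, the Hedgehog effector that shapes the anterior side. Twist1 acts throughout the limb mesenchyme in support of FGF signalling from the overlying ridge, Twist2 is a close relative found in mesenchyme and dermis, and Hand1 is best known from the heart, placenta and lateral mesoderm. A known feature of Twist1 and Hand2 is that the balance between them affects limb patterning.

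On the GRCm38 build, Hand1 (ENSMUSG00000037335) lies on the minus strand of chromosome 11 at 57828705 to 57832818. Hand2 (ENSMUSG00000038193) lies on the plus strand of chromosome 8 at 57320983 to 57324633. Twist1 (ENSMUSG00000035799) lies on the plus strand of chromosome 12 at 33957671 to 33959829, and Twist2 (ENSMUSG00000007805) on the plus strand of chromosome 1 at 91801461 to 91848028. All 4 are protein-coding. The coding bases of the bHLH domain are given here, from the GENCODE M21 transcripts, because the likeness of the members in this domain decides whether their reads could be mixed up. Each sequence runs 5′ to 3′ along the coding strand, and capitals mark the 86 bases that are identical in all 4 genes. The stretches are chr11:57831328-57831480 for Hand1, chr8:57322228-57322380 for Hand2, chr12:33958338-33958487 for Twist1 and chr1:91801849-91801998 for Twist2.
Hand1: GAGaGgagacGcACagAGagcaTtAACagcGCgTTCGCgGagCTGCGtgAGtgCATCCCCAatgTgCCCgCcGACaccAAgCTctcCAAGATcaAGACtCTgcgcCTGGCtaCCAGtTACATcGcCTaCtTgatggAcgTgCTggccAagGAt
Hand2: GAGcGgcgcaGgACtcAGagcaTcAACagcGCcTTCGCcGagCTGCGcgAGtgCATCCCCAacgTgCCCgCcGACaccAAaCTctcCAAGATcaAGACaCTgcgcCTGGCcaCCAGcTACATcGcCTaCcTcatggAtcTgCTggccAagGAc
Twist1: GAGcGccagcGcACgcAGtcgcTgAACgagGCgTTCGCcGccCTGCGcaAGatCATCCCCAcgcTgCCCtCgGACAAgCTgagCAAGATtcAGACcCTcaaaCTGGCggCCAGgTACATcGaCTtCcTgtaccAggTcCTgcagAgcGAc
Twist2: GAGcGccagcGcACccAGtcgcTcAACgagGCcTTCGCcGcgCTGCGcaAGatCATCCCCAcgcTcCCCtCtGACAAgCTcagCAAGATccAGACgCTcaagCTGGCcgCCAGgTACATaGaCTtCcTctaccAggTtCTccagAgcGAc

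Over these exonic stretches Hand1 and Hand2 encode the same residue at 49 of 51 codons (96.1%) and share 86.3% of their bases. Twist1 and Twist2 encode identical residues at all 50 codons, with 135 of 150 bases in common. A Hand and a Twist gene share 30 of 50 residues in every pairing. The likeness is therefore higher within each pair than between the pairs, and most base differences within a pair are synonymous. Even so, no exact window of 75 bases, the read length of the Ovation set, was shared between the Hand1 and Hand2 transcripts or between the Twist1 and Twist2 transcripts. No window of 30 bases was shared either. Overlapping genes bear on the counts of 2 members. Hand2 overlaps the antisense gene Hand2os1 over 3251 bases, and Twist2 overlaps the antisense gene Gm29100 over 1477 bases. Neither antisense gene was in the table, and the Ovation kit is not stated to keep strand, so in that set reads from a gene and its antisense partner cannot be told apart.

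None of the 4 members passed the test between KO and WT HLs. By limma 0 of 4 had an adjusted p under 0.05 and 0 of 4 an unadjusted p under 0.05, and an exact permutation test gave the same counts. Across the table, 272 of 12996 genes tested (2.09%) had a limma adjusted p under 0.05, 135 higher (1.04%) and 137 lower (1.05%) in KO. The share was 1.15% in the Ovation set alone and 0.0231% in the NEBNext set alone, and no member passed in either. At an unadjusted limma p under 0.05 the count over all libraries was 1916 of 12996 genes. This is the background for such counts in the lists below. All 4 members passed the filter on low values (1 CPM or more in at least 4 libraries), so each was tested. Neither targeted gene passed: Meis1 stood at 0.10 and Meis2 at 0.07 in log2 fold change (FC), KO over WT, with limma adjusted p-values of 0.755 and 0.864. Gene-level CPM does not separate deleted exons from the rest of a transcript, so this does not check the deletion. The HL label was met by Tbx4 and Pitx1. Tbx4 was at 70.2 CPM in KO and 69.3 CPM in WT, and Pitx1 at 22.1 and 21.0 CPM in KO and WT. The forelimb gene Tbx5 was not among the genes analysed. Not all 6 hindlimb mesenchyme markers were level, since 1 fell (Msx1) and 0 rose in limma. Lhx9 was at 44.3 CPM in KO and 93.6 CPM in WT (limma adjusted p = 0.0879). Prrx1 was at 582.5 CPM in KO and 420.9 CPM in WT (limma adjusted p = 0.0927). Library totals summed to between 754534 and 805762 CPM. Summed levels of 8 erythroid genes spread from 1355 to 13087 CPM over KO libraries and from 1786 to 11755 CPM over WT libraries, so this sum varied widely within both groups. The read depth behind the values is unknown, and no counting interval can be given.

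**Figure D1:**
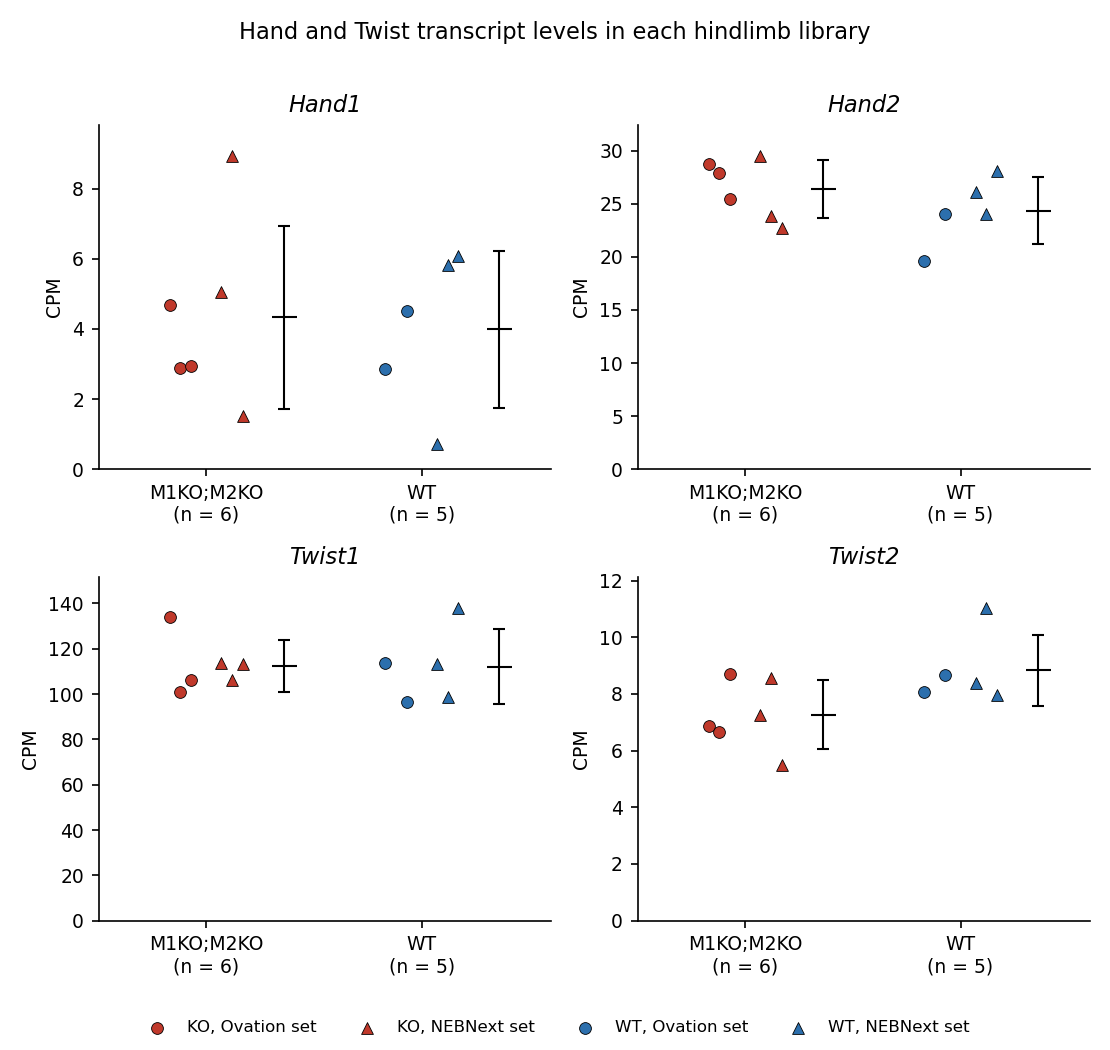
CPM of Hand1, Hand2, Twist1 and Twist2 in each library, with 6 M1KO;M2KO (red) and 5 WT (blue) libraries, circles for the Ovation set and triangles for the NEBNext set, and bars for mean ± SD. The groups overlap for every member, and Twist2 has 4 of 6 KO libraries below the lowest WT library.

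Hand2, the posterior determinant, was present in every HL at a similar level. Its CPM was 28.7, 27.9 and 25.5 in KO S_258, S_280 and S_284 and 29.5, 23.9 and 22.8 in KO 2, 3 and 4, against 19.6 and 24.0 in WT S_252 and S_254 and 26.1, 24.0 and 28.1 in WT 1, 3 and 4. The groups overlapped, with 2 of 6 KO libraries above every WT library and none below. The mean was 26.4 ± 2.74 CPM in KO (SD, n = 6) and 24.4 ± 3.16 CPM in WT (SD, n = 5). The difference was smaller than the spread between embryos, with log2 FC at 0.12, its SE at 0.11 and a limma adjusted p of 0.690. The 95% interval of the FC ran from 0.922 to 1.28. The value is a total over the whole bud and holds no information on where in the bud Hand2 was expressed.

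The library sets gave different pictures for Hand2. In the Ovation set all 3 KO libraries lay above both WT libraries, with a log2 FC of 0.33, a 95% interval of -0.04 to 0.69 and a limma adjusted p of 0.348. The groups did not overlap for 35.2% of all genes tested in that set, so a separation in that set was common. In the NEBNext set, 1 KO library lay above and 2 lay below every WT library, against 18.8% of genes without overlap in that set, and log2 FC was -0.05 (95% interval -0.35 to 0.26, limma adjusted p = 0.916). The Ovation effect exceeded the NEBNext effect by 0.37 on the log2 scale, with a 95% interval of -0.06 to 0.81 and an adjusted p of 0.461 for the interaction in limma. Across all genes the interaction called none (0.0%), with 1694 genes at an unadjusted p under 0.05. Among the 3 Ovation embryos of litter 1, Hand2 read 28.7 CPM in KO S_258, against 19.6 and 24.0 CPM in WT S_252 and WT S_254. Much of the positive value rests on WT S_252, the lowest library, since the log2 FC over the remaining 10 libraries was 0.03 (limma adjusted p = 0.941).

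Hand1, the paralog of Hand2, was the most variable member. Its CPM was 4.67, 2.88 and 2.93 in KO S_258, S_280 and S_284 and 5.04, 8.93 and 1.52 in KO 2, 3 and 4, against 2.86 and 4.51 in WT S_252 and S_254 and 0.711, 5.83 and 6.08 in WT 1, 3 and 4. The highest library was a KO and the lowest a WT, both in the NEBNext set, and most WT values fell among the KO values. The highest KO library was 5.88 times the lowest, and in WT the highest was 8.55 times the lowest. Means were 4.33 ± 2.60 CPM in KO (SD, n = 6) and 4.00 ± 2.24 CPM in WT (SD, n = 5), and the log2 FC of 0.17 had an SE of 0.46 (limma adjusted p = 0.922). The 95% interval of the FC was 0.565 to 2.23, so both a lower and a higher Hand1 level within these bounds remain compatible with the data. The direction also turned on a single embryo, since log2 FC was -0.26 without WT 1 and -0.11 without KO 3.

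The scatter of Hand1 was set beside markers of tissues in which it is known. Its residual SD of 0.933 on the log2 scale lay above that of 95.5% of the 1415 genes of like level, whose median was 0.383. Of the 8 cardiac muscle markers 3 were measured, and they summed to between 3.00 and 8.15 CPM over KO libraries and between 2.98 and 6.79 CPM over WT libraries. Nkx2-5 and Myl7 were not among the genes analysed. The 7 measured markers of coelomic and flank mesoderm, which lies beside the HL, summed to between 34.5 and 59.2 CPM in KO and between 34.1 and 58.1 CPM in WT. Of these 0 of 7 passed the limma test, and 2 of 7 had an unadjusted p under 0.05, against 1916 of all 12996 genes. KO 3, the library highest in Hand1, had a flank sum of 34.5 CPM, the lowest of its group, and WT 1, the library lowest in Hand1, had 38.8 CPM. The summed level of 3 neural crest markers was 68.8 CPM in KO 3, the highest of all libraries, and 23.1 CPM in WT 1, near the lowest. The part of these tissues in the Hand1 values was not tested.

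Twist1, the general limb mesenchyme factor, was the most abundant member. CPM was 134, 101 and 106 in KO S_258, S_280 and S_284 and 114, 106 and 113 in KO 2, 3 and 4, against 114 and 96.4 in WT S_252 and S_254 and 113, 98.6 and 138 in WT 1, 3 and 4. The WT range enclosed that of the KO libraries on both sides. Means were 112 ± 11.6 CPM in KO (SD, n = 6) and 112 ± 16.6 CPM in WT (SD, n = 5). The log2 FC was 0.01 with an SE of 0.10 (limma adjusted p = 0.976), and its interval as a FC was 0.871 to 1.17, the narrowest of the members. Within sets log2 FC was 0.11 for Ovation and -0.06 for NEBNext (limma adjusted p = 0.752 and 0.866), and the difference between the sets was 0.17 (limma adjusted p = 0.785). Twist1 is also expressed in neural crest, and the 3 measured of 5 neural crest markers summed to between 31.7 and 68.8 CPM in KO and between 23.0 and 35.1 CPM in WT. Of these Tfap2b, a factor of neural crest and of limb mesenchyme, passed the test at 32.6 CPM in KO and 12.9 CPM in WT (limma adjusted p = 0.0192), while Sox10 and Foxd3 were not among the genes analysed. Their part in the Twist1 level was not tested.

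Twist2 came closest to a difference, with lower values in KO. CPM was 6.86, 6.67 and 8.71 in KO S_258, S_280 and S_284 and 7.24, 8.58 and 5.50 in KO 2, 3 and 4, against 8.05 and 8.68 in WT S_252 and S_254 and 8.40, 11.04 and 7.97 in WT 1, 3 and 4. A total of 4 of 6 KO libraries lay below every WT library, and the other 2 lay within the WT range. Means were 7.26 ± 1.22 CPM in KO (SD, n = 6) and 8.83 ± 1.27 CPM in WT (SD, n = 5). The log2 FC was -0.27 with an SE of 0.15 and a 95% interval of -0.60 to 0.06, 1.21-fold lower in KO, with a limma adjusted p of 0.455 and an unadjusted p of 0.102. An exact two-sided permutation test within library sets gave p = 0.085 where the smallest possible value was 0.005. The difference therefore did not pass by either test. In the same exact test p was 0.7 for Hand1, 0.3 for Hand2 and 0.895 for Twist1.

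The Twist2 mean was lower in KO within either kit, with log2 FC at -0.17 for Ovation and -0.35 for NEBNext (limma adjusted p = 0.785 and 0.548). The difference between sets was 0.18 (95% interval -0.51 to 0.86, limma adjusted p = 0.872). In litter 1 of the Ovation set Twist2 read 6.86 CPM in KO S_258, against 8.05 and 8.68 CPM in the WT littermates. The highest value of all, 11.04 CPM, came from WT 3, and without it log2 FC was -0.19 (limma adjusted p = 0.622). Summed markers of other cells lay lower in KO for part of the cell types and higher for others. Mean sums were higher in KO for hindlimb mesenchyme (777 CPM, WT 689 CPM) and endothelium (245 CPM, WT 224 CPM). The same held for neural crest (47.9 CPM, WT 27.0 CPM) and erythroid markers (7088 CPM, WT 6290 CPM). Muscle precursor markers summed to between 32.6 and 49.7 CPM in KO and between 35.7 and 52.0 CPM in WT, and surface ectoderm and ridge markers to between 167 and 288 CPM in KO and between 210 and 297 CPM in WT. The 5 measured somite markers summed to between 14.0 and 72.8 CPM in KO and between 28.5 and 96.95 CPM in WT, with all 5 at a log2 FC below 0 over all libraries. Of these 0 of 5 passed the limma test, and 2 of 5 had an unadjusted p under 0.05, against 1916 of all 12996 genes. The direction was not shared by the kits, since Tcf15, Meox1 and Pax1 were at 0.31, 0.58 and 1.53 in the Ovation set alone. WT 3, the library highest in Twist2, was the highest WT library in the muscle precursor, ectoderm and somite sums, at 52.0, 297 and 96.95 CPM. It was also the highest WT library in the flank and neural crest sums, at 58.1 and 35.1 CPM. In the hindlimb mesenchyme and endothelium sums WT 3 was the lowest of all libraries, at 590 and 194 CPM. The sums are not independent, since Pax3 is in the muscle precursor and somite sums and Tbx18 in the somite and flank sums. The part of these cells in the Twist2 values was not tested.

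**Figure D2:**
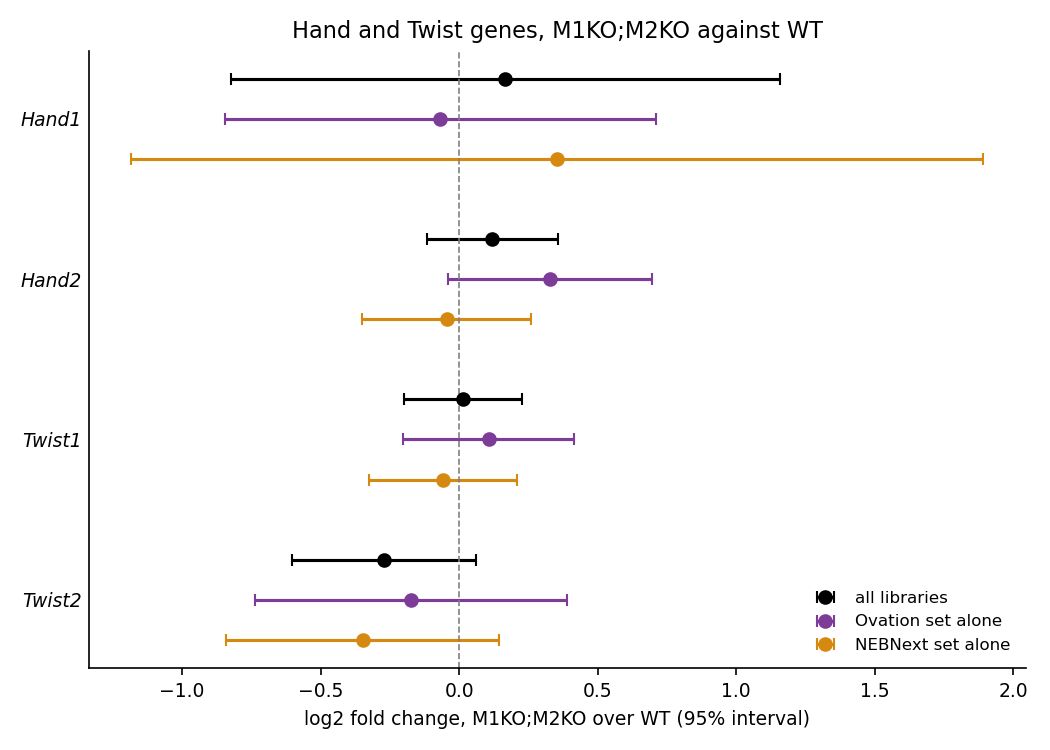
Log2 fold change of M1KO;M2KO over WT for each member, with 95% intervals, fitted over all 11 libraries (black), the Ovation set alone (purple) and the NEBNext set alone (orange). Every interval includes 0, and Hand2 is at 0.33 for the Ovation libraries and -0.05 for the NEBNext libraries.

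The order of the members by level was the same in KO and WT means. Per kilobase of annotated exon, Twist1 was at 69.0 ± 7.10 CPM in KO (SD, n = 6) and 68.8 ± 10.2 CPM in WT (SD, n = 5). This was higher than 96.9% and 96.6%, in KO and WT, of the genes that passed the filter on low values and had an exon length. Hand2 followed at 11.2 ± 1.17 CPM per kilobase in KO and 10.4 ± 1.34 in WT. Twist2 was at 2.29 ± 0.384 CPM per kilobase in KO and 2.78 ± 0.399 in WT, and Hand1 at 2.17 ± 1.301 in KO and 2.001 ± 1.12 in WT. The Twist1 level per kilobase exceeded that of Hand2 in 6 of 6 KO and 5 of 5 WT libraries, by 5.23 to 7.18 times in KO and 5.80 to 8.39 times in WT. Hand2 exceeded Twist2 in all 11 libraries as well, by 3.76 to 5.65 times in KO and 2.94 to 4.75 times in WT. The lowest neighbours had no fixed order, with Twist2 above Hand1 in 3 of 6 KO and 4 of 5 WT libraries. Each pair thus held a more and a less abundant paralog in these HLs, Twist1 over Twist2 and Hand2 over Hand1.

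**Figure D3:**
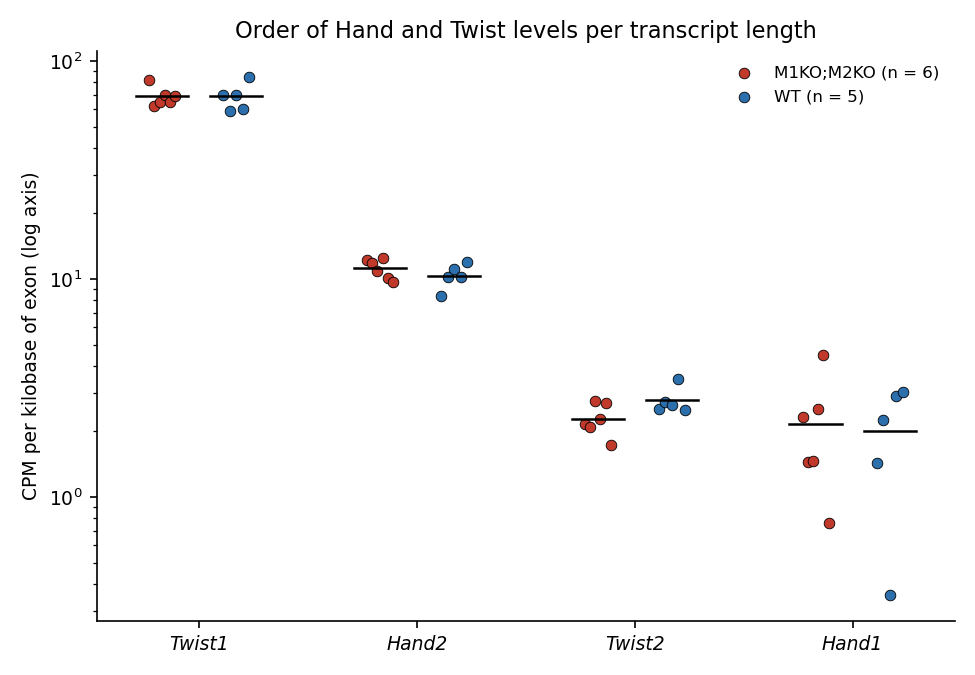
CPM per kilobase of annotated exon on a log axis for Twist1, Hand2, Twist2 and Hand1 in each library, with 6 M1KO;M2KO libraries (red) left of 5 WT libraries (blue) and lines at the means. Twist1, Hand2 and Twist2 occupy separate bands in both groups, while Hand1 spreads across the level of Twist2.

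Scatter between embryos differed among the members. After genotype and library set were taken out, the residual SD on the log2 scale was 0.176 for Hand2, 0.182 for Twist1 and 0.224 for Twist2, close to the median of 0.218 over all genes tested, and 0.933 for Hand1. Genes of similar level offer the closer comparison. Twist2 was steadier than most of these, at percentile 24.9, whereas Twist1 lay at percentile 77.9 and Hand2 at percentile 41.2 of theirs. Within KO libraries the highest value was 1.296, 1.32 and 1.58 times the lowest for Hand2, Twist1 and Twist2, and within WT libraries 1.43, 1.43 and 1.38 times.

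Because the balance of Hand2 and Twist1 is of interest in limb patterning, and Hand2 and Gli3 oppose each other along the anteroposterior axis, both ratios were formed within each library. There a scaling factor shared by all genes of the library cancels, apart from the effect of the pseudocount of 0.5. The log2 ratio of Hand2 to Twist1 was -2.20, -1.84 and -2.04 in KO S_258, S_280 and S_284 and -1.93, -2.13 and -2.29 in KO 2, 3 and 4, against -2.51 and -1.98 in WT S_252 and S_254 and -2.10, -2.01 and -2.28 in WT 1, 3 and 4. It averaged -2.07 ± 0.168 in KO (SD, n = 6) and -2.18 ± 0.218 in WT (SD, n = 5). The groups overlapped, with 2 of 6 KO libraries above every WT library, and the difference of 0.11 (95% interval -0.18 to 0.39) did not pass an exact two-sided permutation test within sets (p = 0.44). WT S_252 decided its sign, since the difference was -0.005 without that library.

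Gli3 itself was at 228 ± 15.6 CPM in KO (SD, n = 6) and 229 ± 16.6 CPM in WT (SD, n = 5), with a log2 FC of -0.01, an SE of 0.07 and a limma adjusted p of 0.985. Its sign turned with the scaling, at 0.02 when all libraries were set to equal totals. The log2 ratio of Hand2 to Gli3 averaged -3.09 ± 0.162 in KO and -3.21 ± 0.183 in WT, a difference of 0.13 with a 95% interval of -0.12 to 0.38. KO libraries spanned -3.31 to -2.86 and WT libraries -3.49 to -3.05, and 3 of 6 KO libraries lay above every WT library (exact two-sided permutation test, p = 0.28). At the level of whole HLs neither ratio differed by more than its spread, and in the NEBNext set alone the Hand2 to Gli3 difference was -0.04.

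**Figure D4:**
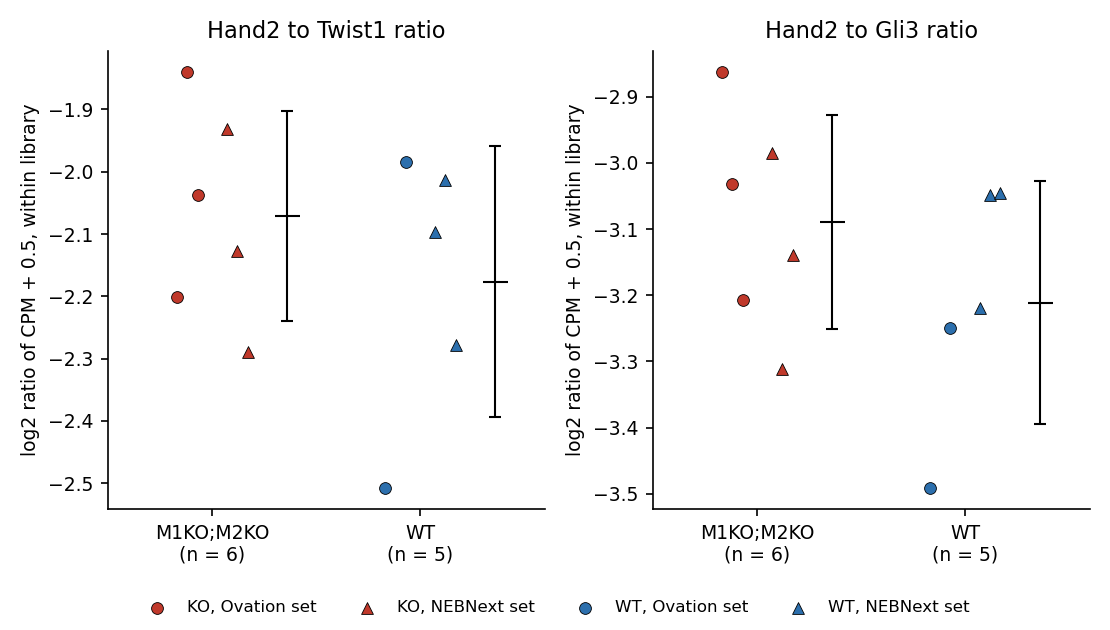
Log2 ratio of Hand2 to Twist1 (left) and of Hand2 to Gli3 (right) in each library, from CPM + 0.5, with 6 M1KO;M2KO libraries (red) and 5 WT libraries (blue), circles for the Ovation set, triangles for the NEBNext set and bars for mean ± SD. The groups overlap in both panels, and WT S_252 is the lowest library in each.

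None of the listed E protein and Id genes passed the test. Of the 3 E proteins 0 passed in limma in either direction and 0 had an unadjusted p under 0.05, with a median log2 FC of -0.11 against 0.00 over all genes. Tcf12 was at 339 ± 24.7 CPM in KO (SD, n = 6) and 370.3 ± 18.6 CPM in WT (SD, n = 5), with log2 FC at -0.13 (limma adjusted p = 0.392). Tcf4 was at 175 CPM in KO and 190.3 CPM in WT, with a log2 FC of -0.11 and a limma adjusted p of 0.685. Of the 4 Id genes 0 passed in limma, also at an unadjusted p under 0.05, with a median of -0.02. Id2 was at 67.9 CPM in KO and 59.7 CPM in WT, a log2 FC of 0.19 (limma adjusted p = 0.468), and Id4, at the lowest level, read 1.59 CPM in KO and 2.10 CPM in WT, a log2 FC of -0.33 (limma adjusted p = 0.662). 

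Other tissue-restricted bHLH genes were mostly not among the genes analysed. Of 36 listed, 7 were tested, 1 rose in KO and 0 fell, with a median log2 FC of -0.17. Across all genes tested 2.09% were called. The gene that rose was Tcf21, a bHLH factor known from the mesenchyme of internal organs. It was at 3.37 ± 1.54 CPM in KO, with a range of 1.61 to 5.97, and at 1.07 ± 0.44 CPM in WT, with a range of 0.693 to 1.76, 2.40-fold higher in KO (limma adjusted p = 0.0430). Tcf21 is a low gene whose groups overlapped, and 9 of the 11 fits that left out a library no longer called it, with adjusted p up to 0.125. Bhlha9 did not pass but was lower in KO at an unadjusted limma p of 0.00632 (limma adjusted p = 0.128). It was at 2.13 CPM in KO and 5.04 CPM in WT, with log2 FC at -1.24.

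The genes that work with Hand2 on the posterior side were then read as a list. Of 16 posterior genes 15 were tested, 1 rose and 0 fell in KO, with a median log2 FC of 0.00, against 2.09% of all genes called. Shh, the signal that Hand2 helps to switch on, was not among the genes analysed. The gene that rose was Tbx2, a T-box repressor of the limb bud margins, at 9.21 ± 1.79 CPM in KO (SD, n = 6) and 4.87 ± 0.709 CPM in WT (SD, n = 5), 1.81-fold higher (limma adjusted p = 0.0156). The lowest KO library had 7.50 CPM and the highest WT library 5.90 CPM, so the groups did not overlap, as for 3.49% of all genes tested. The other 14 posterior genes did not pass. Among them Gli1, Hoxa13 and Isl1 were higher in KO at an unadjusted limma p under 0.05, with log2 FC at 0.81, 0.92 and 0.66. Sall3 was lower at that level, with log2 FC at -0.58. Limma adjusted p-values were 0.0927 for Gli1, 0.171 for Hoxa13, 0.327 for Isl1 and 0.170 for Sall3.

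The list of outgrowth and mesenchyme genes around Twist1 held more called genes. Of 16 tested, 1 rose and 4 fell in KO, with a median log2 FC of -0.27, against 2.09% of all genes called. The list was chosen with earlier results of these data known, and it holds Fgf8, which the paper reports as lower. Its count is therefore a description and gives no independent support. Fgf8, the FGF ligand of the apical ridge, was at 0.794 ± 0.929 CPM in KO (SD, n = 6) and 8.01 ± 4.16 CPM in WT (SD, n = 5), 6.99-fold lower in KO on the scale with the pseudocount (limma adjusted p = 0.00635). Etv4 and Etv5, ETS factors that are read as targets of FGF signalling, fell too. Etv4 was at 12.7 ± 3.31 CPM in KO and 25.7 ± 3.59 CPM in WT, 2.03-fold lower (limma adjusted p = 0.00947). Etv5 was at 56.5 ± 15.4 CPM in KO and 87.3 ± 6.41 CPM in WT, 1.59-fold lower (limma adjusted p = 0.0487), and its call was lost in 9 of 11 fits that left out a library. The homeobox gene Msx1 fell 1.62-fold, at 38.6 ± 2.32 CPM in KO and 62.8 ± 7.03 CPM in WT (limma adjusted p = 0.00275). Fgfr2, a receptor for these FGFs, was higher in KO at 120.0 ± 20.9 CPM, against 80.5 ± 9.23 CPM in WT, 1.48-fold (limma adjusted p = 0.0274), a call lost in 7 of 11 such fits.

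The interval of the Twist1 FC in these HLs was 0.871 to 1.17, and a link between Twist1 and these genes was not tested. Sp8, a zinc finger factor of the limb ectoderm, also fell, at 11.7 ± 3.63 CPM in KO and 20.8 ± 3.02 CPM in WT (1.81-fold, limma adjusted p = 0.0369), and with Fgf8 it made 2 of 8 ectoderm and ridge markers that fell, with 0 higher. Over all genes tested 1.05% fell. The call on Sp8 was lost in 8 of 11 fits that left out a library. These bulk samples hold both ectoderm and mesenchyme, so the values do not place a change in either tissue, and the part of ridge cells in the lower Etv4, Etv5 and Msx1 values was not tested. Neural markers were low throughout, with 3 measured of 6 summing to between 2.49 and 4.34 CPM in KO and between 5.24 and 7.05 CPM in WT. Of these 0 of 3 passed in limma, and 2 of 3 had an unadjusted p under 0.05, against 1916 of all 12996 genes. All 4 sympathetic neuron markers, of a lineage that needs Hand2, were outside the genes analysed.

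**Figure D5:**
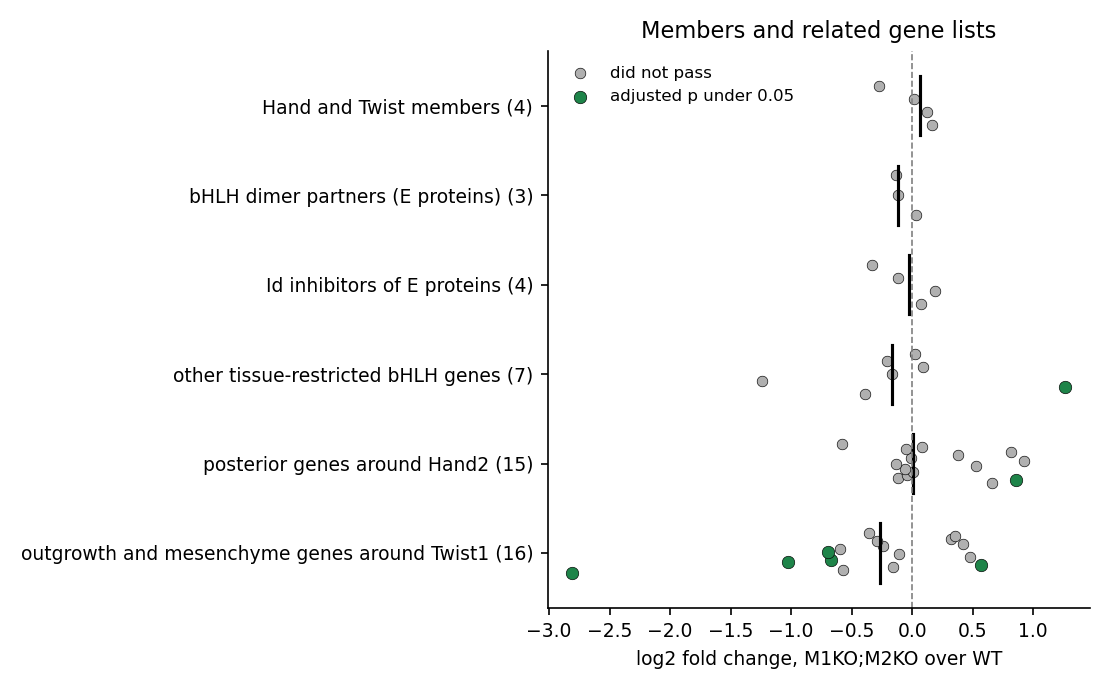
Log2 fold change of M1KO;M2KO over WT for the 4 members and for each tested gene of 5 related lists, with the number tested in brackets, green for genes with an adjusted p under 0.05 and black lines at list medians. The 4 members, the 3 E proteins and the 4 Id genes hold no green point, and the list around Twist1 holds 5.

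The genes whose pattern was most like each member were ranked by Pearson's r of log2(CPM + 0.5) over the 11 libraries after the means of the sets were removed. They share the libraries and their unknown depth, and are given as a description. Hand2 was most like 4933404O12Rik (r = 0.929), Trmt1l (r = 0.924), 4632404H12Rik (r = 0.918), Pcnx (r = 0.916) and Arhgef11 (r = 0.908). Hand1 was most like Serpinb9 (r = 0.917), Wisp1 (r = 0.906), Igsf11 (r = 0.898), Ascc1 (r = 0.892) and Phospho2 (r = 0.888). Genes most like Twist1 included Tgfbrap1 (r = 0.925), Clgn (r = 0.909), Znrf3 (r = 0.893) and Plpp1 (r = 0.890). Genes most like Twist2 included Col5a2 (r = 0.892), 1190007I07Rik (r = 0.891), Amdhd2 (r = 0.891) and Zfpl1 (r = 0.886). No member was among the 5 genes most like another member.

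Promoter windows of RefSeq on GRCm38.p6, 250 bases before to 50 after the start, were matched for 3 of the 4 members, all but Hand1. The letters TGACAG, the hexamer known for Meis proteins, read on both strands, were found once in the Twist2 window, with the first base at -38 from the start, and not in the Hand2 and Twist1 windows. The hexamer was in 19.2% of all 32851 windows. The E-box CANNTG, which bHLH dimers bind, was found at 2 places in the Hand2 window and at none in the Twist1 and Twist2 windows, against 72.3% of all windows. These are matches of letters in short windows, and binding was not measured here.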

How the data were processed

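Submitters' processing notes name CASAVA 1.8.2, cutadapt 1.3 and RSEM 1.2.3 (expected gene counts on GRCm38) for Ovation libraries, and bcl2fastq, cutadapt, RSEM and limma, without versions, for NEBNext libraries. The authors scaled by TMM, removed the batch difference with ComBat and deposited linear CPM for 13720 genes, with 0 values at 0. Whether genotype entered ComBat is not given in the sources used here, and such a correction can understate residual spread.

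Log2(CPM + 0.5) was fitted in limma 3.58.1 under R 4.3.3. Terms were library set and genotype, with a mean-variance trend and 8 residual degrees of freedom. A gene needed 1 CPM in 4 or more libraries, which kept 12996 and removed 724. FC is fitted KO over WT, pseudocount included, and understates changes of low genes. Tests were two-sided with Benjamini-Hochberg adjustment over all genes. An interaction term compared the sets, each set was also fitted alone, and ratios were tested by exact permutation within sets (200 arrangements, scipy 1.17.1). GENCODE M21 supplied positions and exon lengths (13704 genes by identifier). The fit was tested on simulated data. Alternatives were other pseudocounts, filters, scalings and variance models, a replicate block, single sets, litter 1 and leaving out each library.

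Members and lists were chosen with earlier results of these data known. Named genes were the 4 members, Gli3 and Shh, every listed gene that passed, up to 2 genes with the smallest p from pathway lists with none, and the 5 most alike per member. Meis1, Meis2, Tbx4, Pitx1, Lhx9 and Prrx1 are named as checks, and Tcf15, Meox1 and Pax1 for their direction in the Ovation set. Gli1, Hoxa13, Isl1 and Sall3 are named for an unadjusted p under 0.05 in the posterior list, and Bhlha9 for the same in the list of other bHLH genes. Some genes that this rule takes are not reported here. Each library is 1 embryo, and p-values set the difference between groups against the spread between these embryos. In limma this spread is moderated across all genes.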

Additional observations from a re-analysis of the deposited data

Results flagged for a closer look

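Twist2 in WT 3 read 11.04 CPM, far above the other 4 WT libraries, which lay between 7.97 and 8.68 CPM. The gap to the nearest of them was 0.769 of the range of the WT group, past the 95% critical value of Dixon's test of 0.710 for 5 samples. A total of 12 groups of values were looked at in this way, and chance alone picks out about 1 group in 20.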

How the results depend on the processing

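No member passed the limma test under any alternative. Twist2 kept its direction in 15 of 15 alternatives (log2 FC -0.35 to -0.17) and when any library was left out (-0.33 to -0.18). The signs of the other members were not stable. Hand1 was at -0.29 with the replicate block and -0.068 in the Ovation set alone, and between -0.26 and 0.45 when libraries were left out. Hand2 was at -0.045 in the NEBNext set alone and between 0.03 and 0.18 with libraries left out. Twist1 was at -0.059 in the NEBNext set alone and between -0.043 and 0.088 with libraries left out, below 0 without KO S_258, WT S_254 or WT 3. The Hand1 difference between sets ranged from -1.04 to 0.38 over the fits without 1 library. The Hand2 to Twist1 ratio ranged from -0.0049 to 0.17 over these fits, and the Hand2 to Gli3 ratio was -0.040 in the NEBNext set alone and 0.045 to 0.19 over these fits. Gli3 was at 0.021 with equal totals, 0.018 with quantile normalization and 0.0058 with the block, and between -0.049 and 0.031 without single libraries. Tcf4 was at 0.021 in the NEBNext set alone, and Id2 at -0.041 in the Ovation set alone. The cause of these turns was not tested.

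The count of 272 genes was 64 with the replicate block, 150 in the Ovation set alone, 3 in the NEBNext set alone, 102 with litter 1 alone in the Ovation set, and between 106 and 337 without single libraries. It was 106 without KO 2, 124 without WT S_252, 127 without WT S_254 and 168 without KO S_284. Setting equal totals gave 160 higher and 118 lower in KO, against 135 and 137. Fewer libraries enter the smaller fits. The libraries share numbers between groups only for 3 and 4 of the NEBNext set, so the block does not rest on a known pairing. It changed no call on a member, but of the 9 called list genes named here it ended 8 calls, all but Msx1 (adjusted p = 0.0337), with adjusted p of 0.0507 for Tfap2b, 0.0517 for Fgf8, 0.0608 for Etv4, 0.0942 for Etv5, 0.104 for Tbx2, 0.109 for Tcf21, 0.111 for Fgfr2 and 0.173 for Sp8. Of these 9, Etv5 and Msx1 were called in the Ovation set alone and 0 in the NEBNext set alone. The interaction called 12 genes with equal totals and up to 46 without single libraries, none of them a member. Of the called list genes, Tbx2 and Tfap2b lost their calls in 2 of 11 fits without a library (adjusted p up to 0.0560 and 0.0680), and Fgf8, Etv4 and Msx1 in none. Depth is unknown, so what it limits could not be stated.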
